A study of Mus musculus with 48 samples.

Results

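Livers of mice labelled SHP knockout were compared with livers of mice labelled Wild-type C57BL/6, all on the control diet, by RNA sequencing. The comparison used 24 of the 48 libraries of the series: the 12 control-diet livers with the knockout title and the 12 with the wild-type title, chosen by title, with the clock time of collection as a block. Both groups drank a control liquid diet with maltose for 10 days and received 9 g/kg maltose dextrin by gavage at 9am on day 11. Each group holds 3 livers taken at each of 6am, 12pm, 6pm and 12am, in groups of 3 mice per the series' design text. The other 24 libraries are the same 2 labels and 4 times after a diet with 5% ethanol and a gavage of 5 g/kg ethanol, and they serve here to repeat the label contrast in other livers and to test whether it differs between the diets. The sources used here do not state age, sex, the allele, the part of the gene that was targeted or how the 2 lines were bred. The separate treatment tag differs from the title in 12 of the 24 control-diet libraries, those of 12pm and 6pm, and the titles were used because they match the design text.

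SHP, the small heterodimer partner encoded by Nr0b2, is an atypical nuclear receptor without a DNA-binding domain that represses other transcription factors by binding to them. In liver, bile acids activate FXR (Nr1h4), FXR induces Nr0b2, and SHP in turn restrains LRH-1 (Nr5a2) and HNF4α (Hnf4a) at genes of bile acid synthesis such as Cyp7a1, the rate-limiting enzyme of the classical pathway, and Cyp8b1, which makes cholic acid. SHP has also been tied to lipid, glucose and drug metabolism and to the circadian clock of the liver.

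Depth ranged over 9605636 to 19780144 reads in genes per library, and 13765 genes entered the test. Levels are given in FPKM after a scale factor that aligns the libraries, as the lowest, median and highest of the 12 livers of a label. A log2 fold change is knockout label over wild type on log2(FPKM + 0.5), followed by its standard error in parentheses, and each adjusted p is limma's, corrected over all genes tested by the Benjamini-Hochberg method. A gene is said to have risen, fallen or been called where that p was under 0.05. Hepatocyte markers dominated every liver, with summed levels of 42200 to 86200 FPKM over 12 genes in knockout-labelled livers and 47900 to 71800 FPKM in wild-type livers. The Y-linked Ddx3y was read in every liver, at 8.54, 14.2 and 17.4 FPKM in the knockout label and 12.1, 17.99 and 21.4 FPKM in wild type. Before any comparison of labels, 3 wild-type livers stood apart: Saa1, an acute phase gene, reached 11970 FPKM in 6pm replicate 0, 8554 FPKM in 6pm replicate 2 and 3206 FPKM in 12am replicate 0. Its lowest, median and highest levels were 43.2, 144 and 678 FPKM in the knockout label and 26.5, 56.9 and 11970 FPKM in wild type.

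Nr0b2 (ENSMUSG00000037583, chromosome 4, 133553376 to 133556536, GRCm38) was not lower in the livers labelled knockout. It ranged over 3.69, 20.6 and 29.99 FPKM in the knockout label and 6.56, 22.3 and 39.6 FPKM in wild type. The ranges overlap almost wholly, and the lowest livers of both labels are from 6pm. The difference was -0.18 (0.22, adjusted p = 0.55), and it was 0.02 without the 6pm livers of both labels. A value per gene does not show which part of Nr0b2 the reads came from, so the genotype rests on the label, and every direction below is that of the labelled groups.

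The 2 labels differed in many genes by small amounts. Of the genes tested, 5063 (36.8%) were called, 2433 higher (17.7%) and 2630 lower (19.1%) in the knockout label, with a median absolute log2 fold change of 0.31 among them. Only 158 genes (1.15%) rose and 107 (0.777%) fell by more than 2-fold. The split between higher and lower depends on the scaling of the libraries: with library totals alone 4538 were higher and 939 lower, and the median over all genes moved to 0.11, against -0.01 with the scale factors. For 126 genes (0.915%) the 12 livers of one label did not overlap the 12 of the other, 65 higher (0.472%) and 61 lower (0.443%). The knockout-labelled 6pm replicate 0 lay at the upper end of the first principal component. This component, with 30.9% of the variance, placed the knockout-labelled livers at 2.16 to 37.9 and the wild-type livers at -23.0 to -13.8, so the labels separated without overlap. Knockout-labelled livers also varied more among themselves: the median within-time SD was 0.181 on the log2 scale in the knockout label and 0.162 in wild type over 11243 genes, and it was larger in the knockout label for 60.1% of them. In whole liver, fewer cells of a type and less RNA per cell cannot be told apart.

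**Figure D1:**
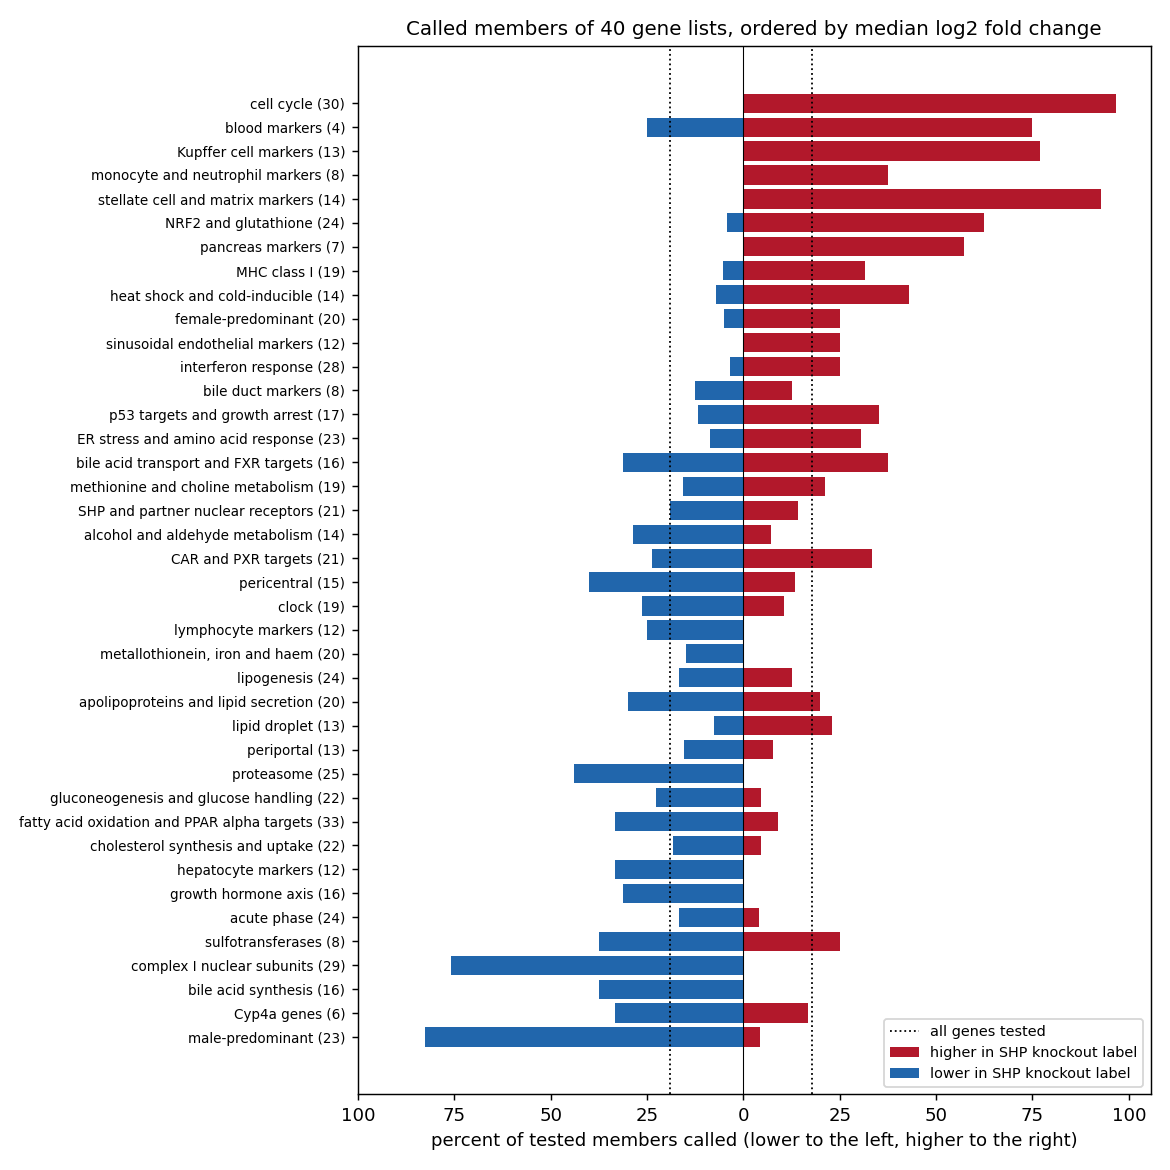
The share of the tested members (number in brackets) of each of 40 gene lists that were called higher (red, to the right) or lower (blue, to the left) in the knockout label, in percent, with lists ordered by median log2 fold change. Dotted lines give the shares over all genes tested, 17.7% and 19.1%; cell cycle genes lie at the top and male-predominant genes at the bottom.

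Bile acid synthesis genes were level or lower in the knockout label. Of 16 tested members 6 fell (background 19.1%), the others were not called, and the median was -0.25. Cyp7a1 itself had 29.1, 49.6 and 163 FPKM in the knockout label and 32.3, 77.6 and 139 FPKM in wild type. These ranges overlap, with the highest livers of both labels at 6pm, and the difference of -0.25 (0.18, adjusted p = 0.275) was not called. Cyp8b1 stood at 131, 227 and 369 FPKM in the knockout label and 135, 282 and 365 FPKM in wild type, a difference of -0.25 (0.19, adjusted p = 0.314). Cyp8b1 was called under other choices of livers: without the 6pm livers of both labels it fell by 0.54, and without the 3 wild-type livers high in Saa1 by 0.49. The member with the widest shift was Cyp7b1, the oxysterol hydroxylase of the alternative pathway, with 15.9, 24.7 and 57.4 FPKM in the knockout label against 33.4, 60.5 and 159 FPKM in wild type. It fell by 1.11 (0.24, adjusted p = 0.00141). Scp2, a peroxisomal thiolase that shortens the side chain, had 324, 467 and 688 FPKM against 589, 706 and 940.0 FPKM in wild type, and fell by 0.53 (0.11, adjusted p = 0.00075). Baat, which joins bile acids to taurine, ranged over 95.3, 130.4 and 163 FPKM against 149, 174 and 194 FPKM in wild type. It fell by 0.40 (0.07, adjusted p = 0.000346). Cyp27a1, the sterol 27-hydroxylase, fell by 0.30 (0.08, adjusted p = 0.00479), but with library totals alone it was not called (adjusted p = 0.0666). With that scaling the list held 3 lower members and 1 higher.

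Among bile acid transporters and FXR targets, 6 of 16 tested members rose, all of them export pumps, and 5 fell, among them 3 uptake carriers, with a median of 0.05. Abcb11, the bile salt export pump, had 43.7, 189.6 and 229 FPKM in the knockout label and 67.8, 124 and 179 FPKM in wild type. It rose by 0.40 (0.13, adjusted p = 0.0206), while a single fit over the 48 libraries gave an adjusted p of 0.0743. Its log2 fold change was 0.38 at 6am, 0.25 at 12pm, -0.04 at 6pm and 1.02 at 12am. Abcb4, the phospholipid flippase of bile, ranged over 62.7, 79.6 and 112 FPKM against 29.2, 54.7 and 68.3 FPKM in wild type. It rose by 0.67 (0.08, adjusted p = 4.03e-06), and the same rise was seen at each time (0.64 to 0.69). Abcg5 and Abcg8, whose products pair to export cholesterol, rose by 0.76 (0.18, adjusted p = 0.00259) and 0.75 (0.21, adjusted p = 0.00762). On the sinusoidal side, Slco1a1, an organic anion and bile acid carrier, had 19.6, 44.0 and 92.1 FPKM in the knockout label and 93.2, 126 and 167 FPKM in wild type. The 2 groups of 12 did not overlap, and it fell by 1.57 (0.22, adjusted p = 1.6e-05). Slco1b2 fell by 0.47 (0.10, adjusted p = 0.00137). Slc10a1, the sodium-dependent bile acid carrier, fell by 0.34 (0.12, adjusted p = 0.038), but it was not called with library totals alone (adjusted p = 0.141) or in 12 of the 24 fits that left out 1 library.

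The nuclear receptors that work with SHP moved by less than 1.5-fold. Of 21 tested receptors and partners 3 rose and 4 fell, a share of 33.3% beside 36.8% of all genes, with a median of -0.03 (0.11 with library totals alone). FXR (Nr1h4) had 45.6, 58.6 and 74.4 FPKM in the knockout label and 59.8, 74.7 and 104 FPKM in wild type, and fell by 0.38 (0.06, adjusted p = 0.000136). LRH-1 (Nr5a2), the activator of Cyp7a1 that SHP binds, ranged over 6.27, 10.2 and 11.5 FPKM against 10.1, 12.3 and 15.0 FPKM in wild type. It fell by 0.33 (0.08, adjusted p = 0.00195). CAR (Nr1i3), a xenobiotic receptor, fell by 0.49 (0.12, adjusted p = 0.00331), with log2 fold changes of -1.11 at 12pm and 0.03 at 6pm. PXR (Nr1i2), the other main xenobiotic receptor, rose by 0.46 (0.08, adjusted p = 0.000118), with 24.7, 34.2 and 47.1 FPKM against 19.2, 23.4 and 39.8 FPKM in wild type. Rara, a retinoic acid receptor, rose by 0.32 (0.06, adjusted p = 0.000203). Hnf4a differed by 0.05 (0.07, adjusted p = 0.596) and Ppara, the fatty acid receptor, by -0.02 (0.09, adjusted p = 0.855).

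**Figure D2:**
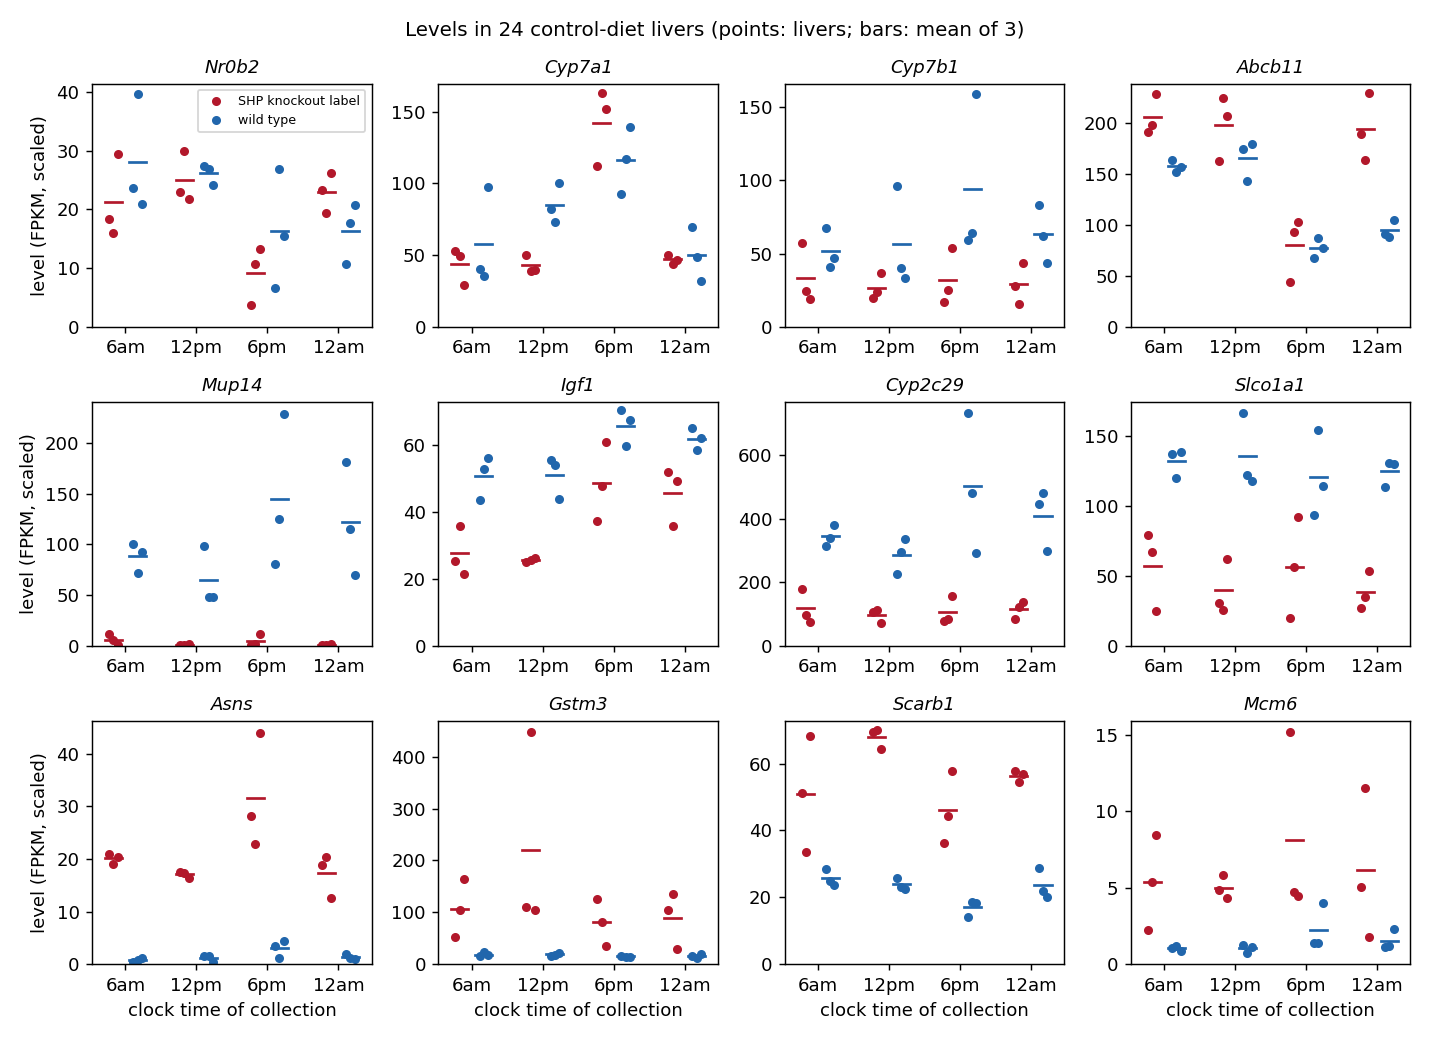
Scaled FPKM of 12 genes in each control-diet liver (points) by clock time, with the mean of 3 livers as a bar, knockout label in red and wild type in blue, each panel on its own linear axis. Nr0b2, Cyp7a1 and Abcb11 overlap between the labels, while Mup14, Slco1a1, Asns and Scarb1 do not overlap.

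Genes with male-predominant expression in mouse liver were the group with the lowest median. Of 23 tested members 19 fell and 1 rose, with a median of -1.57, and the same counts held with library totals alone and without the 6pm livers. These genes depend on the pulsatile growth hormone release of males. Averaged over the list on the log2 scale, the livers stood at 3.31, 4.74 and 6.09 in the knockout label and 6.09, 6.77 and 7.26 in wild type. The groups met at their edges, where the knockout-labelled 6pm replicate 2 lay just above the lowest wild-type liver. The major urinary proteins, pheromone carriers secreted by the liver, led the list. Mup14 had 0.167, 1.14 and 11.6 FPKM against 48.1, 95.0 and 229 FPKM in wild type and fell by 5.57 (0.44, adjusted p = 3.38e-09). Mup11 had 0.573, 7.19 and 42.7 FPKM against 68.2, 232 and 525 FPKM in wild type, and fell by 5.02 (0.50, adjusted p = 2.17e-07). For both genes the 12 and 12 livers did not overlap, and every knockout-labelled time was lower. Of 23 rows with a known position and a symbol that begins with Mup, 22 were called (95.7%). These rows include pseudogenes. They were matched by symbol alone and are not all on chromosome 4, so a row placed elsewhere need not be a Mup gene. Since the Mup copies are near-identical in sequence, their separate levels are uncertain. Mup20, a member with a more distinct sequence, had 289, 1066 and 1496 FPKM against 1459, 3434 and 4542 FPKM in wild type and fell by 1.81 (0.23, adjusted p = 5.23e-06).

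Outside the Mup cluster the same list held Hsd3b5, a steroid dehydrogenase of male liver. It had 0.403, 17.8 and 58.9 FPKM in the knockout label and 41.0, 97.9 and 156 FPKM in wild type, and fell by 2.45 (0.45, adjusted p = 0.00031). Nudt7, a peroxisomal coenzyme A hydrolase, ranged over 43.9, 83.9 and 122 FPKM against 156, 192 and 304 FPKM in wild type. It fell by 1.21 (0.13, adjusted p = 4.22e-07) with no overlap of livers. The member that rose was Cyp4a12a, a male-predominant fatty acid hydroxylase, with 47.5, 111 and 161 FPKM against 30.8, 62.5 and 77.6 FPKM in wild type. Its change of 0.77 (0.18, adjusted p = 0.00171) was not called in a single fit over the 48 libraries (adjusted p = 0.0611). Female-predominant genes moved less: of 20 tested 5 rose and 1 fell, a share of 30% beside 36.8% of all genes, with a median of 0.17. In a single fit over the 48 libraries 2 rose, and 2 rose without the 3 wild-type livers high in Saa1. Cyp3a44 rose by 0.79 (0.11, adjusted p = 2.46e-05) at levels of 0.307, 0.633 and 1.75 FPKM against 0, 0.211 and 0.284 FPKM in wild type, low in both labels. The member that fell was Cyp4a10, described with its family below.

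In the growth hormone axis 5 of 16 tested rows fell and the others were not called, with a median of -0.18. The share called was 31.3%, beside 36.8% of all genes. Igf1, the circulating growth factor that growth hormone induces in liver, had 21.6, 35.8 and 60.8 FPKM in the knockout label and 43.5, 57.3 and 70.4 FPKM in wild type. It fell by 0.70 (0.10, adjusted p = 2.25e-05), with -0.89 and -0.98 at 6am and 12pm and -0.46 and -0.45 at 6pm and 12am. Onecut1, a transcription factor of hepatocytes that growth hormone induces, ranged over 1.54, 3.59 and 10.7 FPKM against 3.54, 11.3 and 18.98 FPKM in wild type and fell by 1.32 (0.24, adjusted p = 0.000266). Socs2, a feedback inhibitor of the receptor, fell by 1.09 (0.24, adjusted p = 0.00154). The receptor Ghr fell by 0.55 (0.13, adjusted p = 0.00181).

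Genes outside these lists were among the largest falls as well. Serpina12, the adipokine vaspin, had 0.845, 2.58 and 12.4 FPKM against 18.4, 32.3 and 39.8 FPKM in wild type. No livers overlapped, and it fell by 3.23 (0.22, adjusted p = 3.26e-10). Cib3, a calcium-binding protein, had 0.32, 1.71 and 6.81 FPKM against 5.38, 29.8 and 40.1 FPKM in wild type, and fell by 3.52 (0.33, adjusted p = 5.97e-08). The terminal complement component C9 fell by 1.19 (0.12, adjusted p = 3.88e-07), with 73.9, 116 and 142 FPKM against 171, 243 and 425 FPKM in wild type.

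Drug-metabolising genes were split. Of 21 targets of CAR and PXR, 7 rose and 5 fell, with a median of -0.03 (0.07 with library totals alone). The share called was 57.1%, beside 36.8% of all genes. The falls were in the Cyp2c family of arachidonic acid and drug oxidases. Cyp2c29 had 69.5, 101 and 178 FPKM in the knockout label and 227, 337 and 733 FPKM in wild type, without overlap, and fell by 1.82 (0.17, adjusted p = 5.87e-08). Cyp2c54 fell by 1.67 (0.22, adjusted p = 1.05e-05) and Cyp2c50 by 1.11. Cyp3a11, the main hepatic Cyp3a and a PXR target, had 483, 891 and 1618 FPKM against 142, 354 and 507 FPKM in wild type. It rose by 1.60 (0.18, adjusted p = 1.26e-06), between 1.36 and 1.87 at the 4 times, and the ranges met only where the lowest knockout-labelled liver lay under the highest wild-type liver. Its relative Cyp3a59 ranged over 8.26, 16.6 and 27.2 FPKM against 1.87, 3.44 and 6.41 FPKM in wild type and rose by 2.05 (0.20, adjusted p = 1.52e-07). The Cyp2c and Cyp3a families share reads, so how the change divides among their members is uncertain. Cyp2e1, the ethanol-oxidising cytochrome, ranged over 896, 1445 and 3623 FPKM against 1936, 2621 and 4127 FPKM in wild type. It fell by 0.83 (0.12, adjusted p = 2.41e-05). Cyp2f2, a naphthalene oxidase of periportal hepatocytes, had 57.1, 178 and 270.1 FPKM against 383, 483 and 617 FPKM in wild type and fell by 1.54 (0.17, adjusted p = 9.22e-07), but it overlaps the antisense gene Gm15883, and without strand the reads of these 2 genes cannot be told apart.

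Of 8 tested sulfotransferases 2 rose and 3 fell, a share of 62.5% beside 36.8% of all genes. Sult2a7, of the hydroxysteroid and bile acid sulfotransferase family, changed most. It had 17.7, 31.1 and 62.2 FPKM in the knockout label and 0.659, 1.33 and 3.19 FPKM in wild type. No knockout-labelled liver came near the wild-type range, and it rose by 4.12 (0.19, adjusted p = 1.91e-13), by 3.86 to 4.48 at the 4 times. Reads are shared among Sult2a copies, so the assignment to this copy is uncertain. Sult1e1, the oestrogen sulfotransferase, rose by 1.27 (0.26, adjusted p = 0.000787) at low levels in both labels, 0.177, 1.36 and 6.29 FPKM against 0, 0.133 and 3.83 FPKM in wild type.

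NRF2 targets and glutathione genes rose. NRF2 (Nfe2l2) is the transcription factor that induces detoxifying and antioxidant enzymes. Of 24 tested members 15 rose and 1 fell, with a median of 0.43, and without the 3 wild-type livers high in Saa1 the counts were 14 and 1. Averaged over the list, log2 levels were 4.21, 4.76 and 5.15 in the knockout label and 3.72, 4.05 and 4.24 in wild type, so the livers overlapped only at the edge. Gstm3, a glutathione transferase, had 28.5, 105 and 447 FPKM against 13.0, 16.7 and 22.8 FPKM in wild type. No livers overlapped, with the highest of the knockout label at 12pm, and it rose by 2.49 (0.28, adjusted p = 8.46e-07). Gsta1 ranged over 0.594, 2.07 and 7.9 FPKM against 0.0634, 0.149 and 0.438 FPKM in wild type, and rose by 2.23 (0.28, adjusted p = 4.34e-06), again without overlap. Srxn1, the sulfiredoxin that repairs peroxiredoxins, rose by 1.22 (0.20, adjusted p = 0.000108), Gstm1 by 0.92 (0.14, adjusted p = 5.07e-05) and the quinone reductase Nqo1 by 0.65 (0.15, adjusted p = 0.00147). Gclm, a subunit of the enzyme that starts glutathione synthesis, fell by 0.23 (0.06, adjusted p = 0.00808), although not with library totals alone. Transferases of the Gsta and Gstm families share reads.

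**Figure D3:**
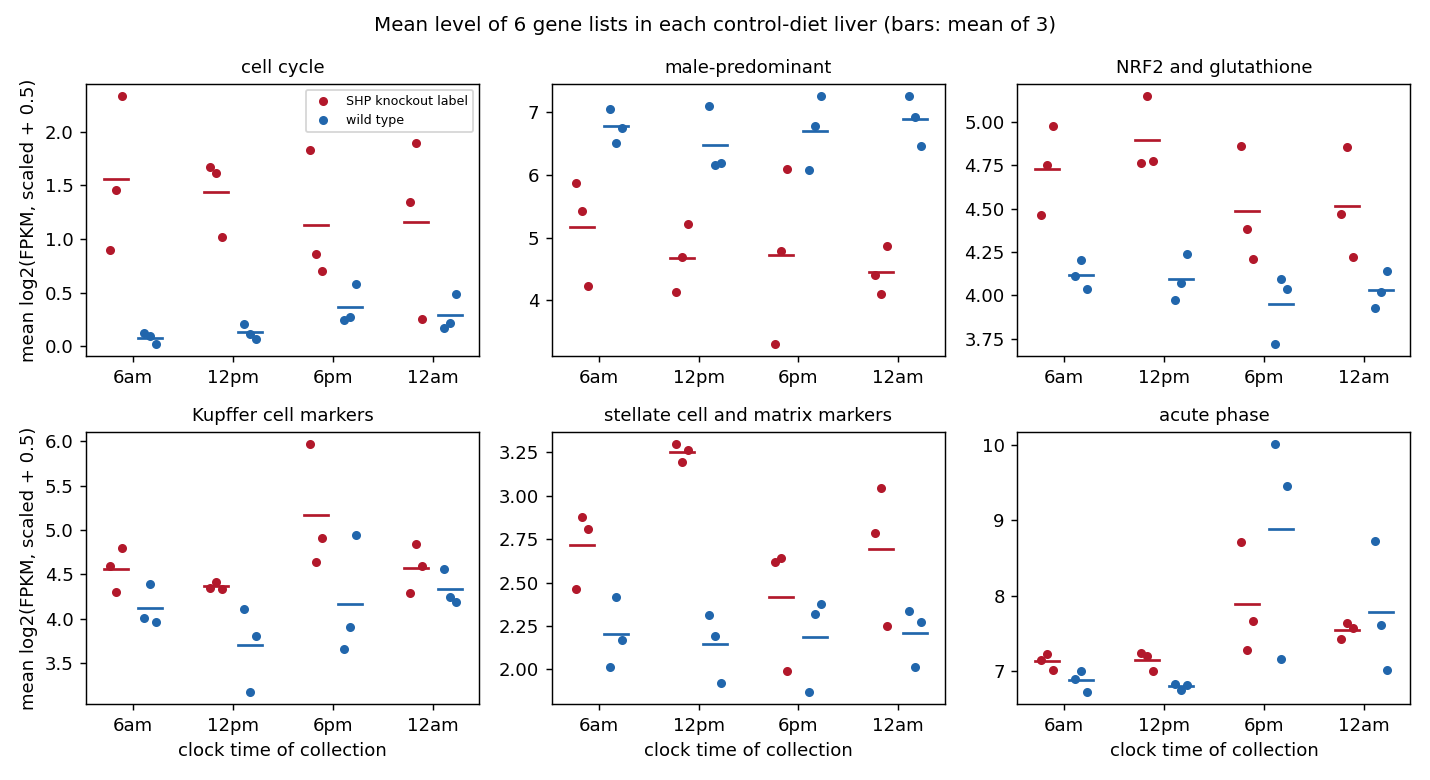
Mean log2(FPKM + 0.5) of the tested members of 6 lists in each control-diet liver (points) by clock time, with the mean of 3 livers as a bar, knockout label in red and wild type in blue. Cell cycle, NRF2 and stellate cell lists lie higher and male-predominant genes lower in the knockout label, while the acute phase list is highest in 3 wild-type livers of 6pm and 12am.

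Asns, asparagine synthetase and a target of ATF4, a transcription factor of the amino acid response, had the largest change of the amino acid and ER stress list. Its promoter from RefSeq (chr6:7693160-7693459, GRCm38.p6, minus strand) is shown because it holds the response element for ATF4, TGATGAAAC searched on both strands, in capitals:
Asns: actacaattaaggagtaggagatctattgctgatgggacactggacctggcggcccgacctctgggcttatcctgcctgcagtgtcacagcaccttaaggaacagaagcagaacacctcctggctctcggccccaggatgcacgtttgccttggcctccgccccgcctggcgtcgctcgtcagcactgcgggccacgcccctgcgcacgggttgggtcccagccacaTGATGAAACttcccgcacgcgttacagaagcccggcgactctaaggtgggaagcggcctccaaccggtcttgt
This element stands in 0.247% of 32851 RefSeq promoters of that length and in 1 of the 22 members of the amino acid and ER stress list that had a promoter, Asns itself. Asns had 12.6, 19.8 and 44.1 FPKM in the knockout label and 0.348, 1.22 and 4.51 FPKM in wild type. The lowest knockout-labelled liver stood well above the highest wild-type liver, and both labels were highest at 6pm. It rose by 3.51 (0.18, adjusted p = 1.75e-12), by 4.06, 3.48, 3.28 and 3.23 at 6am, 12pm, 6pm and 12am. Of 23 tested members of the list 7 rose and 2 fell, a share of 39.1% beside 36.8% of all genes, with a median of 0.08. Those that rose include Atf3, a stress-induced transcription factor, by 1.43 (0.35, adjusted p = 0.00311), Psat1 of serine synthesis by 0.97 (0.21, adjusted p = 0.00121) and the pseudokinase Trib3 by 0.93 (0.15, adjusted p = 9.03e-05). Psat1 was low in all livers, at 0.218, 0.818 and 2.97 FPKM against 0.136, 0.265 and 0.38 FPKM in wild type. Atf4 mRNA fell by 0.31 (0.10, adjusted p = 0.0198) and Xbp1, a factor of the unfolded protein response, by 0.41 (0.11, adjusted p = 0.00579), both calls lost with library totals alone. Cth, which makes cysteine from cystathionine, had 69.7, 304 and 350.1 FPKM against 28.7, 129 and 179 FPKM in wild type and rose by 1.13 (0.22, adjusted p = 0.000577).

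In lipid handling, 4 of 20 apolipoprotein and lipid-secretion genes rose (background 17.7%) and 6 fell (background 19.1%). Scarb1, the HDL receptor that takes up cholesterol esters, had 33.4, 57.3 and 69.9 FPKM in the knockout label and 14.0, 22.9 and 28.8 FPKM in wild type. The livers did not overlap, and it rose by 1.27 (0.10, adjusted p = 6.65e-09), by 0.92 to 1.49 at the 4 times. Apoa4, an apolipoprotein that liver makes when triglyceride export is high, ranged over 1082, 2884 and 4756 FPKM against 291, 547 and 891 FPKM in wild type. It rose by 2.30 (0.24, adjusted p = 3.3e-07) without overlap, although Gm10680 lies antisense to it and their reads cannot be told apart. Apoc2, the activator of lipoprotein lipase, rose by 0.58 (0.08, adjusted p = 2.46e-05). Apoa1, the main protein of HDL, fell by 0.34 (0.12, adjusted p = 0.0311), although not with library totals alone or in 7 of the 24 fits that left out 1 library. The median of the list was -0.09 (0.05 with library totals alone, where 5 rose and 3 fell). Of 24 lipogenic genes 3 rose and 4 fell, a share of 29.2% beside 36.8% of all genes. The 3 that rose encode desaturases. Scd2 had 1.76, 6.29 and 11.3 FPKM against 1.39, 1.92 and 3.3 FPKM in wild type and rose by 1.45 (0.19, adjusted p = 1.03e-05). Fads2 rose by 0.85 (0.12, adjusted p = 1.89e-05) and Fads1 by 0.54. Srebf1, the lipogenic master regulator, differed by -0.25 (adjusted p = 0.114). Fitm1, a lipid droplet protein, had 3.36, 6.05 and 12.6 FPKM against 15.2, 24.2 and 33.7 FPKM in wild type, and fell by 1.65 (0.22, adjusted p = 8.23e-06), while the droplet protein Plin5 rose by 0.51 (0.12, adjusted p = 0.0017).

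Of 33 tested fatty acid oxidation genes and PPARα targets 3 rose and 11 fell, with a median of -0.15. The share called was 42.4%, beside 36.8% of all genes, and with library totals alone 5 rose and 6 fell. Vnn1, a pantetheinase and sensitive PPARα target, fell by 0.82 (0.17, adjusted p = 0.000768). Cpt1a, the gate for fatty acids into mitochondria, rose by 0.44 (0.09, adjusted p = 0.000577), and Bdh1, which makes hydroxybutyrate, rose by 0.57 (0.08, adjusted p = 1.4e-05). The CYP4A ω-hydroxylases named in the title of the series did not move together. Of 6 tested Cyp4a genes 1 rose and 2 fell, a share of 50% beside 36.8% of all genes, with a median of -0.55. Cyp4a10 had 5.52, 16.01 and 41.5 FPKM against 6.76, 46.9 and 85.0 FPKM in wild type and fell by 1.39 (0.39, adjusted p = 0.00751), by 2.36 at 12pm and by 0.01 at 6pm. Cyp4a14 ranged over 10.7, 24.3 and 58.8 FPKM against 3.66, 51.9 and 149.6 FPKM in wild type, with a difference of -0.83 (0.49, adjusted p = 0.186). Without the 3 wild-type livers high in Saa1 it fell by 1.46. Copies of this family share reads.

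Cell cycle genes rose with 1 exception. Of 30 tested members 29 rose, all but Ccne2 (0.21, 0.11, adjusted p = 0.132), with a median of 1.04, and all 30 rose with library totals alone. There were 28 both without the 6pm livers and without the 3 wild-type livers high in Saa1. On the log2 scale the list averaged 0.253, 1.40 and 2.33 in the knockout label and 0.0241, 0.191 and 0.584 in wild type. One knockout-labelled liver, 12am replicate 2, lay inside the wild-type range, and the others stood above it. The MCM proteins form the helicase that opens replication origins. The RefSeq promoter of Mcm3 (chr1:20820263-20820562, GRCm38.p6, minus strand) is shown as an example of the E2F element, TTTNGCGC searched on both strands, in capitals:
Mcm3: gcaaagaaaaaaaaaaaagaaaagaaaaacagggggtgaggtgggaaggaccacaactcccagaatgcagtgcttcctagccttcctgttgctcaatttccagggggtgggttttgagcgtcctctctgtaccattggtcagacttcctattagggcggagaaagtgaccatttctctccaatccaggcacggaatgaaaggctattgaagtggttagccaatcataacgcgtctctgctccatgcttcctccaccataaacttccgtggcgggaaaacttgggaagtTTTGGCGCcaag
E2F factors drive genes of DNA replication, and these letters stand in 1.38% of RefSeq promoters and in 5 of the 23 cell cycle members with a promoter (Cdk1, Mcm3, Mcm5, Mcm6 and Mcm7). Mcm3 had 2.16, 4.32 and 13.5 FPKM against 1.14, 1.5 and 2.48 FPKM in wild type, and rose by 1.20 (0.17, adjusted p = 2.47e-05). Mcm6 ranged over 1.81, 4.96 and 15.2 FPKM against 0.764, 1.21 and 3.99 FPKM in wild type and rose by 1.65 (0.24, adjusted p = 3.42e-05). Mcm5 rose by 1.75 (0.26, adjusted p = 3.06e-05) and Mcm2 by 1.40 (0.21, adjusted p = 3.63e-05). Among mitotic genes, the proliferation marker Mki67 had 0.268, 1.57 and 6.41 FPKM against 0.092, 0.22 and 0.523 FPKM in wild type. It rose by 1.46 (0.25, adjusted p = 0.000152), by 2.34, 1.74, 0.52 and 1.24 at 6am, 12pm, 6pm and 12am. Cdc20, an activator of mitotic exit, rose by 2.43 (0.38, adjusted p = 5.68e-05). Of 17 p53 targets and growth arrest genes 6 rose and 2 fell, a share of 47.1% beside 36.8% of all genes. Cdkn1a, the p21 inhibitor of the cell cycle, had 3.87, 7.76 and 17.0 FPKM against 0.566, 1.99 and 11.0 FPKM in wild type and rose by 1.40 (0.29, adjusted p = 0.00091).

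Markers of macrophages and of stellate cells were higher in the knockout label too, but not most in the same livers. Averaged on the log2 scale, Kupffer cell markers were highest in knockout-labelled 6pm replicate 0 and stellate cell markers in 12pm replicate 0. Of 13 tested Kupffer cell markers 10 rose and the others were not called, with a median of 0.66. Their summed level was 378, 433 and 1180 FPKM in the knockout label and 187, 315 and 571 FPKM in wild type. The top of the knockout-labelled range is 1 liver, 6pm replicate 0, which was also the highest of its label in Cd68, Cd5l, Mcm2, Mcm3, Mcm5 and Mcm6. The mitotic genes Mki67 and Cdc20 were highest in 6am replicate 2, at 6.41 and 23.06 FPKM, against 1.126 and 2.265 FPKM in 6pm replicate 0. Without 6pm replicate 0, 10 of 13 Kupffer cell markers were higher with a median of 0.55, 28 of 30 cell cycle genes with a median of 0.97, and 11 of 14 stellate cell and matrix markers with a median of 0.50. Cd68, a lysosomal protein of macrophages, had 10.2, 14.4 and 33.2 FPKM against 3.66, 7.93 and 15.0 FPKM in wild type and rose by 1.003 (0.18, adjusted p = 0.00029). Clec4f, which marks Kupffer cells within the liver, rose by 0.52 (0.13, adjusted p = 0.00325), and Cd5l by 0.82 (0.19, adjusted p = 0.00179). Mmp12, a macrophage elastase, and Gpnmb, a glycoprotein of lipid-laden macrophages, rose by 1.77 (0.23, adjusted p = 6.07e-06) and 1.92 (0.27, adjusted p = 2.29e-05) at levels under 0.5 FPKM in every wild-type liver. Of 14 stellate cell and matrix markers 13 rose, with a median of 0.49, and the same count held without the 6pm livers. Their sum was 169, 236 and 286 FPKM in the knockout label and 147, 183 and 213 FPKM in wild type. Col1a1, a chain of collagen I, had 0.873, 3.77 and 10.4 FPKM against 0.695, 1.3 and 2.42 FPKM in wild type and rose by 1.06 (0.25, adjusted p = 0.00217). Timp1, an inhibitor of matrix proteases, rose by 1.23 (0.23, adjusted p = 0.000358), with all levels under 3 FPKM. Lrat, which esterifies retinol and marks quiescent stellate cells, differed by 0.08 (adjusted p = 0.636). Of 12 hepatocyte markers 4 fell and the others were not called, with a median of -0.18 (2 rose and 3 fell with library totals alone). Of the other marker lists, sinusoidal endothelium had 3 of 12 higher (8 with library totals alone), monocytes and neutrophils 3 of 8 higher (5 with library totals alone), lymphocytes 3 of 12 lower and bile duct 1 of 8 in each direction. Shares called were 33.3% for hepatocytes, 37.5% for monocytes and neutrophils and 25% for endothelium, lymphocytes and bile duct, beside 36.8% of all genes. No listed marker found in the table was at 0 in all livers. What part other cell types have in the cell cycle and stress lists was not tested.

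Pancreas and blood genes moved too, at low levels. Of 7 pancreatic enzyme genes 4 rose, with a median of 0.29 and sums of 7.01, 15.5 and 21.8 FPKM against 8.03, 11.4 and 14.1 FPKM in wild type, and no call held in a single fit over the 48 libraries. Of 4 blood genes 3 rose and Alas2, the erythroid haem enzyme, fell by 0.73 (0.17, adjusted p = 0.00201). Haemoglobin Hba-a1 had 8.96, 22.3 and 43.2 FPKM against 4.33, 7.95 and 28.7 FPKM in wild type.

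Subunits of respiratory complex I, the NADH dehydrogenase of mitochondria, fell by small amounts. Of 29 tested rows of the table for nuclear-encoded subunits 22 fell and the others were not called, with a median of -0.24, and 10 fell with library totals alone. The share of gene reads in mitochondrially encoded genes was 3.32% to 5.10% in the knockout label and 4.08% to 6.15% in wild type, ranges that overlap, and hepatocyte markers had a median of -0.18. The part of either in these counts was not tested. Ndufb5 had 24.4, 31.0 and 43.1 FPKM in the knockout label and 33.1, 39.8 and 42.0 FPKM in wild type, and fell by 0.32 (0.06, adjusted p = 0.000577). Ndufa4 fell by 0.32 (0.07, adjusted p = 0.00106) and Ndufv2 by 0.31 (0.06, adjusted p = 0.000637). Of 25 proteasome subunit genes 11 fell, a share of 44% beside 36.8% of all genes, with a median of -0.13. With library totals alone 3 rose, 1 fell and the median was 0.01. Psma5 fell by 0.34 (0.05, adjusted p = 6.22e-05).

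Clock genes were called as often as all genes. Of 19 tested 2 rose and 5 fell, a share of 36.8% beside 36.8% of all genes, with a median of -0.05 (0.07 with library totals alone). REV-ERBα (Nr1d1), the clock repressor named in the series' title, had 0.638, 3.8 and 36.1 FPKM in the knockout label and 1.11, 6.89 and 41.1 FPKM in wild type. Its fall of 0.47 (0.16, adjusted p = 0.026) was lost with library totals alone, in a single fit over the 48 libraries and without the knockout-labelled 6am replicate 2. The call was also lost without the 6pm livers of both labels and with a block of time and replicate number together. Its partner Nr1d2 fell by 0.59 (0.13, adjusted p = 0.00164) and the transcription factor Nfil3 by 0.58 (0.15, adjusted p = 0.00509). Arntl, the activator BMAL1, ranged over 0.703, 5.74 and 12.8 FPKM against 0.368, 7.03 and 14.3 FPKM in wild type, a difference of -0.16 (0.11, adjusted p = 0.237). Per2, a repressor in the core loop, rose by 0.25 (0.08, adjusted p = 0.0156).

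Acute phase and interferon genes gave counts that rested on few livers. In the acute phase list 1 of 24 members rose and 4 fell, with a median of -0.18. Without the 3 wild-type livers high in Saa1, 10 rose and 3 fell with a median of 0.16, and without wild-type 6pm replicate 1 the count was 8 lower with a median of -0.39. Saa1 itself differed by -0.32 (0.74, adjusted p = 0.76) over all livers and by 1.20 without those 3. They were taken from wild type alone and chosen by Saa1, so an upward shift of Saa1 and its list was built into the choice. The knockout-labelled 6pm replicate 0, with a mean log2 level of 8.71 over the acute phase list, was kept. The left-out wild-type 12am replicate 0 had 8.73. Of 28 interferon-response genes 7 rose and 1 fell (12 rose with library totals alone), while 3 rose and 1 fell without the 3 livers, and 4 rose without the knockout-labelled 12am replicate 1. Over all livers 20.8% of the acute phase list and 28.6% of the interferon list were called, beside 36.8% of all genes. Oas1a, an antiviral sensor, had 1.25, 1.94 and 6.0 FPKM against 0.691, 1.2 and 1.61 FPKM in wild type and rose by 0.67 (0.14, adjusted p = 0.001).

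Several of the largest differences were in pairs of a gene and a copy of it. BC002163 is a processed pseudogene on chromosome 16 (42955631 to 42955949) that matches the complex I gene Ndufs5 on chromosome 4 (123712710 to 123718202) at 317 of 319 aligned bases of GENCODE M21 transcripts (99.37%). Bases 16 to 105 of the 2 coding stretches are shown, since the 2 bases in capitals are the only ones that differ in the aligned coding stretch:
Ndufs5: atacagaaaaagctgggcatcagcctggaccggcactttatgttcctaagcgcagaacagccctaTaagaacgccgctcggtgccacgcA
BC002163: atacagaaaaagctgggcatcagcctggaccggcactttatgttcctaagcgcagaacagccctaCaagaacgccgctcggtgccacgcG
Ndufs5 had 0.137, 0.472 and 0.937 FPKM in the knockout label and 9.02, 10.5 and 13.4 FPKM in wild type, and fell by 3.54 (0.11, adjusted p = 2.42e-16). BC002163 showed the reverse, 23.8, 30.7 and 50.2 FPKM against 0.481, 1.46 and 2.12 FPKM in wild type, a rise of 4.16 (0.13, adjusted p = 8.21e-17). Each knockout-labelled liver gave 2 to 11 reads to Ndufs5 and 106 to 199 to BC002163, and each wild-type liver 108 to 192 and 2 to 11. The copy therefore took 96.1% of the pair's reads in the knockout label and 4.59% in wild type, while the pair together had 11.9 ± 1.53 CPM (counts per 1e6 gene reads) in the knockout label and 9.71 ± 0.862 CPM in wild type (SD, n = 12 each). The reads themselves were not used here, so the bases at these sites in the mice of each label are not known.

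The glycolytic gene Eno1 on chromosome 4 (150236721 to 150248879) and its copy Gm5506 on chromosome 18 match at 99.45% of 1652 aligned bases. Gm5506 is annotated as protein-coding. Eno1 had 5.54, 8.23 and 10.0 FPKM in the knockout label and 12.7, 23.9 and 30.4 FPKM in wild type, and fell by 1.49 (0.06, adjusted p = 1.2e-14). Gm5506 received 142 to 242 reads per knockout-labelled liver and 0 to 5 per wild-type liver. The sum of the pair was 60.8 ± 8.39 CPM in the knockout label and 125 ± 24.0 CPM in wild type (SD, n = 12 each), so the sum was lower in the knockout label as well. Rpl11, a ribosomal protein gene of chromosome 4 (136028265 to 136053428), is matched by Gm10036 on chromosome 18 at 99.25% and by Gm12901, on chromosome 4, at 90.74%. Rpl11 fell by 0.28 (0.09, adjusted p = 0.0155), although not with library totals alone, and Gm10036 rose by 3.62 (0.12, adjusted p = 3.13e-16). Rpl11 and Gm10036 together had 9.41 ± 1.95 CPM in the knockout label and 3.17 ± 0.614 CPM in wild type (SD, n = 12 each), so here the sum was higher in the knockout label. Gm12901 had 19 to 65 reads per knockout-labelled liver and 0 in all 12 wild-type livers, at least 158-fold higher with a floor of 3 reads over the group.

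Genes whose livers did not overlap were most numerous on chromosome 4, where Nr0b2 lies. Of the 126, 41 were on this chromosome. Within 20 Mb of Nr0b2, 28 of 425 tested genes (6.59%) had no overlap, and within 5 Mb 12 of 157 (7.64%), beside 81 of 12399 (0.653%) on other chromosomes. Farther along chromosome 4, once the Mup genes were left out, 4 of 436 (0.917%) had none. The share of called genes was closer, at 45.2% within 20 Mb and 36.6% on other chromosomes. Fam131c, 7.81 Mb from Nr0b2, had 11.7, 17.1 and 25.4 FPKM against 1.65, 2.1 and 2.43 FPKM in wild type and rose by 2.73 (0.10, adjusted p = 3.71e-15). Tmem51, a membrane protein gene, rose by 1.63 and Extl1, a glycosyltransferase of the heparan sulfate family, by 1.43 (0.16, adjusted p = 6.83e-07). Among genes that fell, the zinc finger gene Gm13152, at 13.9 Mb, was read in few knockout-labelled livers, at 0, 0 and 0.0748 FPKM against 1.03, 1.5 and 2.89 FPKM in wild type. Fbxo44, of the ubiquitin ligase family, had 0, 0.0383 and 0.133 FPKM against 0.777, 1.09 and 1.55 FPKM in wild type. Serinc2 and the receptor gene Tlr12 each fell by 1.74, and the deacetylase gene Hdac1 by 0.83 (0.06, adjusted p = 2.04e-09). Linkage of such genes to the targeted locus cannot be told apart here from an effect of the allele. Wdfy1 and Nnt were picked after their values were seen, since they are known to differ between mouse strains or C57BL/6 sublines. Wdfy1 had 3.84, 5.06 and 6.01 FPKM against 1.52, 2.13 and 2.51 FPKM in wild type, without overlap, and Nnt had 7.24, 12.5 and 15.6 FPKM against 5.8, 6.74 and 7.34 FPKM. The Y-linked Eif2s3y also did not overlap, with 8.54, 11.6 and 13.3 FPKM against 13.8, 16.6 and 21.2 FPKM in wild type.

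**Figure D4:**
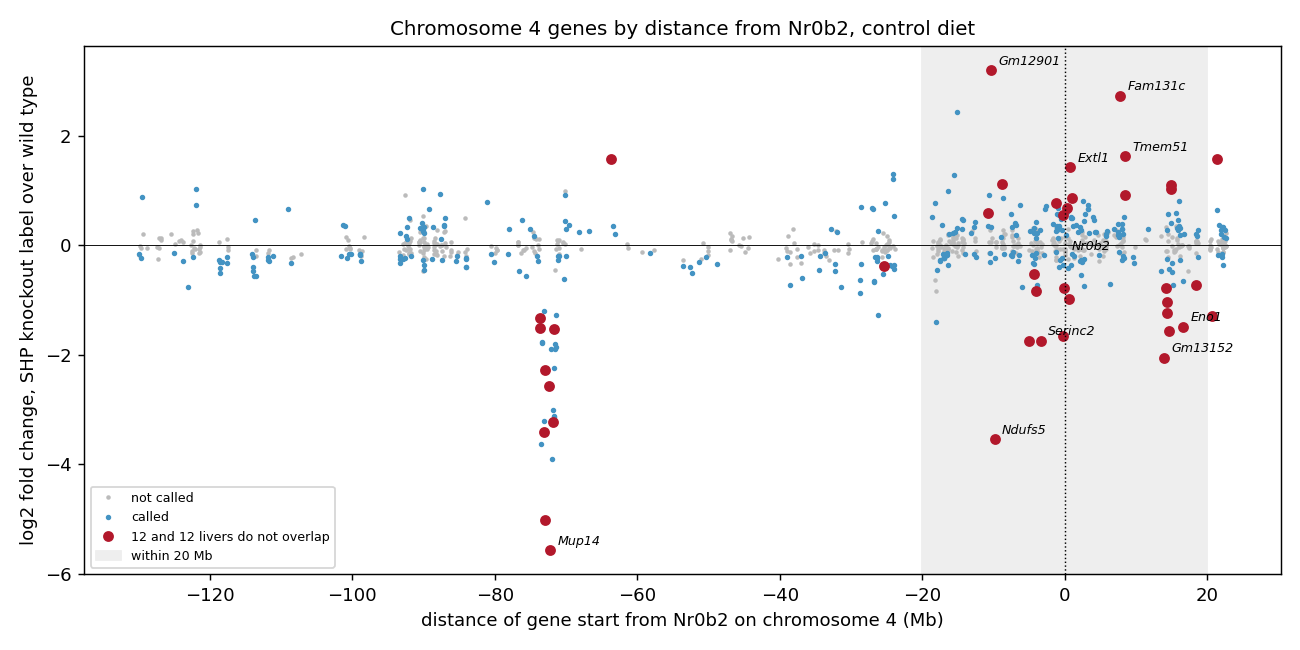
Log2 fold change (knockout label over wild type) of the tested genes of chromosome 4 by distance of the gene start from Nr0b2 in Mb, with the 20 Mb on either side in grey. Genes without overlap of 12 and 12 livers (red) gather in the grey band and at the Mup genes.

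Non-coding RNAs of 2 imprinted domains were higher in the knockout label, and were grouped after their values were seen. Meg3, a maternally expressed RNA on chromosome 12 (109541001 to 109571726), had 0.409, 2.27 and 3.81 FPKM against 0.0318, 0.0639 and 0.107 FPKM in wild type. No livers overlapped, and it rose by 2.21 (0.17, adjusted p = 2.13e-09). Rian, its neighbour, rose by 2.12 (0.17, adjusted p = 3.38e-09), and the rows Mir1906-1, inside the span of Meg3, and SNORD113 rose with it. H19, on chromosome 7 (142575529 to 142578143), a fetal RNA that is silenced in adult liver, had 0.34, 4.57 and 21.7 FPKM against 0.0326, 0.276 and 0.576 FPKM in wild type. It rose by 2.56 (0.35, adjusted p = 1.51e-05), and Mir675, inside its span, by 2.74 (0.55, adjusted p = 0.000599). The libraries select poly(A) RNA, so reads in rows named for small RNAs are those of the host transcripts and not of mature small RNAs. Mid1, an X-linked ubiquitin ligase gene, had 0.514, 1.1 and 2.13 FPKM against 0.0839, 0.157 and 0.3001 FPKM in wild type, and Sprr1a, a keratinocyte envelope protein induced in injured tissue, ranged over 0.525, 5.29 and 37.1 FPKM against 0, 0 and 0.575 FPKM.

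The label difference was tested at each time with 3 livers against 3. At 6am 464 genes (3.37%) were called, at 12pm 2552 (18.5%), at 6pm 1442 (10.5%) and at 12am 359 (2.61%). These counts rested on single livers. At 6am the count was 238 and 131 without knockout-labelled replicates 1 and 2, and 163, 244 and 173 without wild-type replicates 0, 1 and 2. At 12pm it was 1258 without knockout-labelled replicate 1, and 1676, 1098 and 1628 without wild-type replicates 0, 1 and 2. At 6pm it was 947 without knockout-labelled replicate 0 and 936 without wild-type replicate 0. At 12am it was 179 and 201 without knockout-labelled replicates 0 and 1, and 239, 172 and 199 without wild-type replicates 0, 1 and 2. Leaving out knockout-labelled 6pm replicate 0, through the shared estimate of spread, gave 712 at 6am and 607 at 12am. A joint test for a difference that varies with time called 13 genes (0.0944%; 1656 at an unadjusted p under 0.05, limma). Leaving out any library other than the knockout-labelled 6am replicates 0 and 2 and 12am replicate 2 moved this count by more than 1.5 times, to between 0 and 54. Among the 5 genes with the smallest p were Cox7c and Atp5l, subunits of cytochrome oxidase and of ATP synthase, each with an adjusted p of 0.037.

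The same contrast in the ethanol-diet livers, which share no animal with the control diet, called 2192 genes (15.9%), 945 higher (6.87%) and 1247 lower (9.06%). In both diets 1110 genes (8.06%) were called with the same sign, which is 21.9% of the control-diet calls and 50.6% of the ethanol-diet calls, and 50 (0.363%) were called with opposite signs. Among control-diet calls 83.1% had the same sign after ethanol, beside 61.6% of genes that were not called. Of the 126 genes without overlap, 121 had the same sign and 90 were called the same way. Of those within 20 Mb of Nr0b2 27 of 28 were called the same way, beside 48 of 81 on other chromosomes. Ndufs5 and BC002163 changed by -3.51 and 4.23 after ethanol, Sult2a7 by 5.01 (adjusted p = 1.23e-07), Asns by 2.92 (adjusted p = 3.28e-08), Scarb1 by 1.14 (adjusted p = 3.77e-07), Cyp2c29 by -1.80 (adjusted p = 0.000168) and Meg3 by 3.13 (adjusted p = 5.05e-10).

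The test of the difference between diets called 839 genes (6.1%). Cell cycle genes had a median of 0.21 after ethanol with 1 of 30 called, and the difference was called for 19 of them. In the NRF2 list 2 rose and 5 fell after ethanol, with 11 differences called: Gstm3 averaged 130.2 ± 55.3 FPKM in the knockout label and 206 ± 110.3 FPKM in wild type after ethanol (SD, n = 12 each), against 124 ± 109 and 17.1 ± 3.06 FPKM on the control diet. The label difference in Gstm3 was -0.64 (adjusted p = 0.122) after ethanol, and it differed from that on the control diet by -3.12 (0.41, adjusted p = 6.22e-06). Male-predominant genes had 7 lower and 2 higher after ethanol, with a median of -0.45 and 11 differences called. Mup14 averaged 1.82 ± 2.84 FPKM in the knockout label and 11.0 ± 8.06 FPKM in wild type after ethanol (SD, n = 12 each). Igf1 differed by -0.00 (adjusted p = 0.997) after ethanol, Cyp3a11 by 0.07 (adjusted p = 0.831), Apoa4 by 0.13 (adjusted p = 0.798) and Cyp2e1 by -0.01 (adjusted p = 0.975), and for each of these 4 the difference between diets was called. Kupffer cell markers had 5 of 13 higher after ethanol, with a median of 0.82. Complex I subunits had 1 higher and 1 lower of 29, with a median of -0.05.

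**Figure D5:**
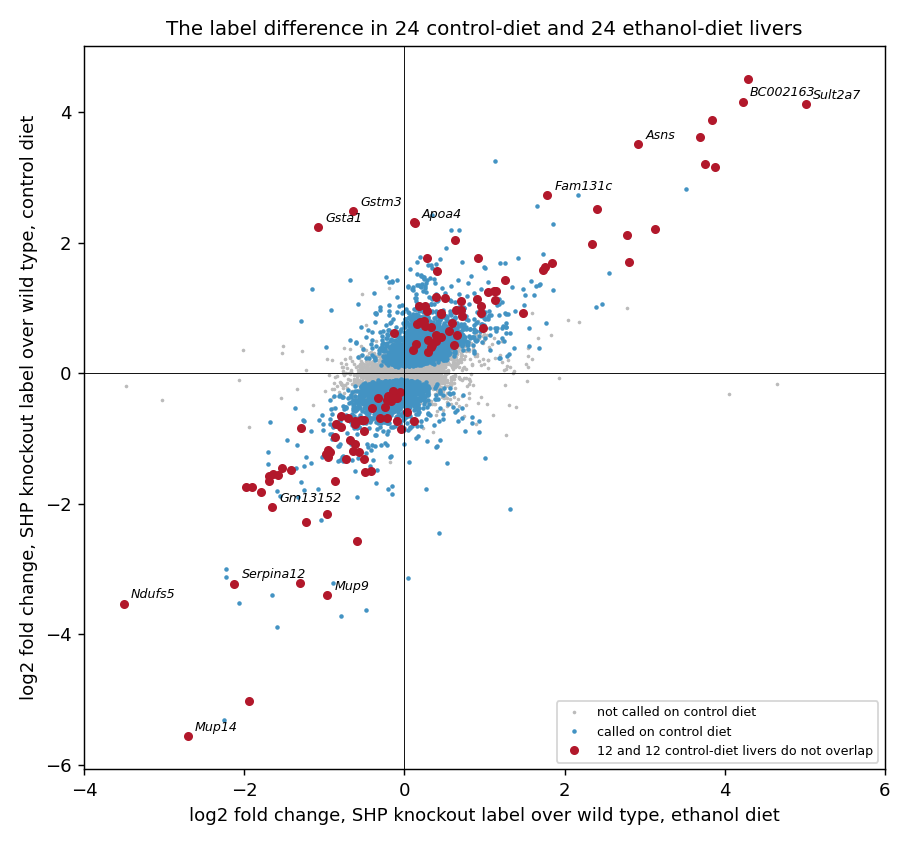
Log2 fold change (knockout label over wild type) of each tested gene on the control diet (vertical) against the ethanol diet (horizontal), each from 24 separate livers, with genes called on the control diet in blue and those without overlap of livers in red. Ndufs5, BC002163, Sult2a7 and Asns lie near the diagonal, while Gstm3, Gsta1 and Apoa4 lie high on the control diet and near or below 0 after ethanol.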

How the data were processed

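Poly(A) RNA of 48 mouse livers was sequenced as 50-cycle single reads with a kit that does not mark strand, per the labels' protocols. The authors deposited a table of FPKM per gene for all libraries, per the file headers, from reads aligned with Novoalign to GRCm38, per the submitters' processing notes. The sources used here name neither the aligner's version and settings nor the counting tool and annotation, and how reads that fit several copies were assigned is unknown.

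The low values of each FPKM column were whole multiples of 1 read, and reads were recovered for all 15041 genes (relative tolerance 1e-09). They gave 9605636 to 19780144 reads in genes per library. The number of livers limits the precision of most genes, and read depth limits genes with few reads. The deposited FPKM were divided by trimmed-mean scale factors (0.772 to 1.24, trims of 30% and 5%). A gene was kept if 3 or more of the 48 libraries had 0.5 FPKM or more, which left 13765 and removed 1276. The log2(FPKM + 0.5) values were tested with limma 3.58.1 (trend, R 4.3.3), with time as a block in the 24 control-diet libraries, with the Benjamini-Hochberg correction over every gene kept. A fold change on this scale understates the change of low genes. The ethanol-diet contrast used the other 24 libraries in the same way, and the difference between diets used all 48. The script was tested on simulated data, where it recovered 5 of 50 genes changed 1.5-fold and 44 of 50 changed 2-fold. It called 12 unchanged genes. The simulation gave every gene the same dispersion, which need not match these livers, so its rates do not carry over to the calls here. Tables were handled with Python 3.11.15 and pandas 2.3.3. Positions and copies come from GENCODE M21 with BLAST 2.17.0, and promoters from a RefSeq table of GRCm38.p6.

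Groups and times come from the titles. Same-numbered livers of both labels correlated above 0.1 in 2 of 12 pairs, so replicate numbers did not pair the livers. Libraries of 1 group differed by more than sampling noise, and none was merged. The labels do not say how the animals were bred or housed.

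The genes and lists were chosen with earlier results of these data known. The genes named are the 12 largest rises and 12 largest falls with the same sign at each time and a mean of at least 1 FPKM, up to 4 members of each list with the smallest p, the 5 with the smallest p for time dependence and a set of SHP-related genes. A further 41 genes were added after their values were seen, among them Abcg5, Abcg8, the Y-linked and imprinted genes and those near Nr0b2. Alternatives covered the pseudocount, the filter, the scaling, voom on recovered reads, the libraries in the fit, replicate blocks, and each library left out in turn. Leaving out the 3 wild-type livers high in Saa1, or the 6pm livers, was chosen after seeing the data.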

Additional observations from a re-analysis of the deposited data

Results flagged for a closer look

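For 51 of the genes named, the label difference after ethanol differed from that on the control diet (limma, adjusted p under 0.05). Each value here is the log2 label difference (knockout label over wild type) in ethanol-diet livers minus that in control-diet livers.

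The difference was called for 11 of 23 male-predominant and 3 of 16 growth hormone axis rows. Among the Mup genes the value was 2.44 for Mup9, 2.86 for Mup14, 1.91 for Mup18, 2.32 for Mup1, 3.08 for Mup11, 2.31 for Mup16, 3.07 for Mup17, 3.14 for Mup7 and 1.74 for Mup12. It was 2.88 for Hsd3b5, 0.695 for Igf1 and 1.08 for Socs2. Outside these lists it was 2.93 for Serpina4-ps1, 1.11 for Serpina12 and 1.46 for Cib3.

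Glutathione and antioxidant genes had negative values, with -3.12 for Gstm3, -3.31 for Gsta1, -1.6 for Srxn1, -1.28 for Gstm1, -1.11 for Nqo1 and -1.22 for Gsta4. The Cyp3a genes were likewise negative, at -1.53 for Cyp3a11, -0.67 for Cyp3a16 and -1.42 for Cyp3a59.

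Cell cycle genes were at -1.55 for Mcm2, -1.33 for Mcm6, -1.31 for Mcm5, -2.09 for Cdc20 and -1.14 for Mki67. The p53 target Zmat3 was at -0.514, the macrophage genes Mmp12 and Gpnmb at -1.49 and -1.4, and Sprr1a at -2.12. Heat shock genes were at -0.533 for Hsp90ab1, -0.866 for Hspb1 and -0.657 for Bag3, while the cold-inducible Cirbp was at 0.785.

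In lipid and intermediary metabolism, Apoa4 was at -2.17, Scd2 at -1.08, Apoh at 0.455, Scp2 at 0.592, Pklr at 1.23, Aldh1b1 at -0.884 and Psat1 at -1.27. Cyp2e1 was at 0.823, Slco1b2 at 0.606 and Xbp1 at 0.585. On chromosome 4, Fam131c was at -0.946 and Gm12901 at 0.551. The strain-variable Nnt was at -0.562 and the imprinted Meg3 at 0.917.

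The label difference varied over the 4 times for Cox7c, Atp5l, AC122821.1 and D430001F17Rik, each with an adjusted p of 0.037, and for 1110054M08Rik with an adjusted p of 0.0407 (limma). The number of genes that pass this test moved with nearly every library left out.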

How the results depend on the processing

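With library totals alone, 4538 genes were higher and 939 lower in the knockout label, the time dependence called 8 genes and the difference between diets 3343. A single fit over the 48 libraries called 800 genes at 6pm, 216 at 12am, 3900 for the label after ethanol and 1692 the same way in both diets. The replicate block called 4968 genes for the label on the control diet and 0 for time dependence (limma; 13 without the block). The replicate block of time and number together called 4615 on the control diet, 1427 after ethanol, 716 the same way in both diets and 551 for the difference between diets. The correlations gave no ground for pairing, and the blocks ended the calls of few genes named: Muc1 and Pecam1 with the first, and Apoa1, Nr1d1 and Pecam1 with the other.

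Leaving out each library in turn gave 4527 to 5330 calls for the label, 131 to 712 at 6am, 1098 to 3297 at 12pm, 936 to 1635 at 6pm, 172 to 607 at 12am and 0 to 54 for time dependence. It gave 1707 to 2399 after ethanol, 870 to 1249 the same way in both diets and 639 to 1026 for the difference between diets.

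Of 212 genes named, 190 kept direction and call with library totals alone, 212 with median-of-ratios factors, 211 with voom, 192 in the single fit and 210 with the replicate block. Reversed signs were all in genes that were not called or were called only for time dependence. AC122821.1 was at 0.034 with library totals and 0.0903 without the 6pm livers. Ppara was at 0.117 with library totals and between -0.0622 and 0.0149 with 1 library left out. Nr0b2 was at 0.0172 without the 6pm livers. Saa1 was at 1.20 without the 3 wild-type livers high in it, a shift built into that choice. It was at 0.587 without the 6pm livers, and between -0.641 and 0.0849 with 1 library left out. Depth limits genes with few reads, such as those of the Meg3 domain in wild type. The causes of these changes were not tested.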
